A study of Mus musculus with 12 samples.

Results

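Amino acid and neurotransmitter transporters of the solute carrier (SLC) families 1, 3, 6, 7, 36, 38 and 43 were followed in 4 stromal populations of the mouse thymus. The members were all gene symbols of the deposited table that consist of Slc, 1 of these family numbers, the letter a and a member number, and 59 of the 23306 symbols met this rule. Symbols with a further letter, such as Slc6a20a, fell outside it. Stromal cells were sorted by flow cytometry from C57 BL6 mice with a KitL-tomato reporter, a red fluorescent protein that reports the gene of Kit ligand, the growth factor of early blood and T-cell progenitors. All cells were negative for lineage markers and for the dead-cell dye Dapi. Vascular endothelial cells (VEC) were EpCAM- CD31+ and were sorted with tomato signal (tomato+ VEC) or without it (tomato- VEC). Cortical thymic epithelial cells (tomato+ cTEC) were EpCAM+ CD31- UEA1- Ly51+ and tomato+, and medullary thymic epithelial cells (tomato- mTEC) were EpCAM+ CD31- UEA1+ Ly51- and tomato-. All 4 groups came from the reporter strain, and none from mice without the reporter was used here. In epithelium (TEC) the tomato signal changes together with the cortical or medullary sort, and these cannot be told apart. Each group had 3 libraries of amplified polyadenylated RNA. The labels do not state whether replicate libraries are from different mice. The p-values therefore reflect the spread among these libraries, which may be technical.

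SLC transporters carry amino acids, their derivatives and neurotransmitters across membranes, many of them against a gradient with sodium or protons as the driving ions. Family 1 takes up glutamate, aspartate and small neutral amino acids, and family 6 takes up neurotransmitters, taurine, creatine and proline. Many family 7 proteins are light chains that reach the cell surface only when bound to a family 3 heavy chain. Families 36 and 38 couple amino acids to protons or sodium, and some of their members sit on lysosomes, where amino acids are sensed. In the thymus, endothelium brings blood nutrients and progenitors into the organ, cortical epithelium supports early thymocytes and medullary epithelium displays proteins of other tissues.

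The libraries held 8388869 to 11807130 counts each, and the 59 transporters together took 0.167% to 0.28% of them. Lineage markers went with the labels. The sum of 10 endothelial markers was 10200 to 13900 CPM (counts scaled to library size) in the 6 VEC libraries, 2.6 to 461 CPM in cTEC and 30.1 to 72.9 CPM in mTEC. The sum of 10 epithelial markers was at most 2.04 CPM in VEC, 5160 to 5610 CPM in cTEC and 3030 to 3730 CPM in mTEC. Replicate 2 of cTEC stood apart with the 461 CPM of endothelial markers, against 27.7 and 2.6 CPM in the other cTEC libraries. Sums of 9 myeloid and dendritic markers were 394 to 413 CPM in mTEC, 11.2 to 169 CPM in cTEC and 12 to 90.1 CPM in VEC. Of these, Lyz2 alone gave 315 to 393 CPM in mTEC and 1.28, 0 and 141.5 in cTEC. Sums of 6 fibroblast markers were 1600 to 2200 CPM in cTEC, of which Dcn alone gave 1559 to 2057, and 130 to 405 CPM in mTEC. Sums of 10 thymocyte markers were 66.9 to 109 CPM in cTEC, 18.1 to 38.1 in mTEC and 2.34 to 33.1 in VEC. Sums of 6 pericyte and smooth muscle markers were 569 to 873 CPM in mTEC, 127 to 402 in cTEC and 6.75 to 34.3 in VEC. No pair of replicates agreed within sampling noise, since the chi-square divided by its degrees of freedom was 86.7 to 137 in VEC pairs and 41.4 to 60 in TEC pairs.

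A few transporters made up most of the transporter RNA in each population. Levels between genes are compared here in deposited RPKM, which divides a gene's counts by library total and gene length. Summed over all 59 genes, the level was 640.7 ± 37.7 RPKM in tomato+ VEC, 539.3 ± 23.5 in tomato- VEC, 510.1 ± 57.8 in cTEC and 548.5 ± 47.3 in mTEC (SD, n = 3). In tomato+ VEC, 4 genes held 92.8% of that sum. They were Slc38a2 (210.8 ± 81.2 RPKM), a sodium-coupled carrier of small neutral amino acids, Slc43a3 (191 ± 21.5 RPKM), known as a nucleobase carrier, Slc6a6 (97.0 ± 15.5 RPKM), the taurine transporter, and Slc3a2 (95.8 ± 26.6 RPKM), the heavy chain CD98 (SD, n = 3). Tomato- VEC shared 3 of these at the top, with Slc43a3 at 223 ± 26.7, Slc38a2 at 118.6 ± 30.7 and Slc3a2 at 88.1 ± 24.3 RPKM (SD, n = 3). Next there was Slc1a5 at 43.2 ± 5.48 RPKM (SD, n = 3), a sodium-dependent exchanger of glutamine and other neutral amino acids. In cTEC the order was Slc38a2 at 207.5 ± 33.4, Slc3a2 at 85.2 ± 10.3, the glutamate and aspartate transporter Slc1a3 at 40.4 ± 11.9 and the neutral amino acid carrier Slc38a4 at 34.8 ± 5.55 RPKM (SD, n = 3). In mTEC it was Slc38a2 at 144.3 ± 26.7, Slc1a3 at 113.5 ± 13.5, Slc3a2 at 60.6 ± 20.7 and the light chain Slc7a7 at 42.9 ± 0.30 RPKM (SD, n = 3). Several neighbours in these orders lay within each other's SD, such as Slc38a2 and Slc43a3 or Slc6a6 and Slc3a2 in tomato+ VEC, and Slc1a3 and Slc38a4 in cTEC. Medullary epithelium had the broadest set, with 34 of 59 genes at a mean of at least 1 RPKM. The count was 14 for tomato+ VEC, 19 for tomato- VEC and 26 for cTEC. The mTEC libraries also had the most genes with a count in the whole table, at 16708 to 17015. The cTEC libraries had 15086 to 15605 and the VEC libraries 13406 to 14346, so the breadth may not be particular to transporters. Some of the 34 rested mostly on 1 library, such as Slc7a13 at 5.44, 0 and 0 RPKM in mTEC.

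**Figure D1:**
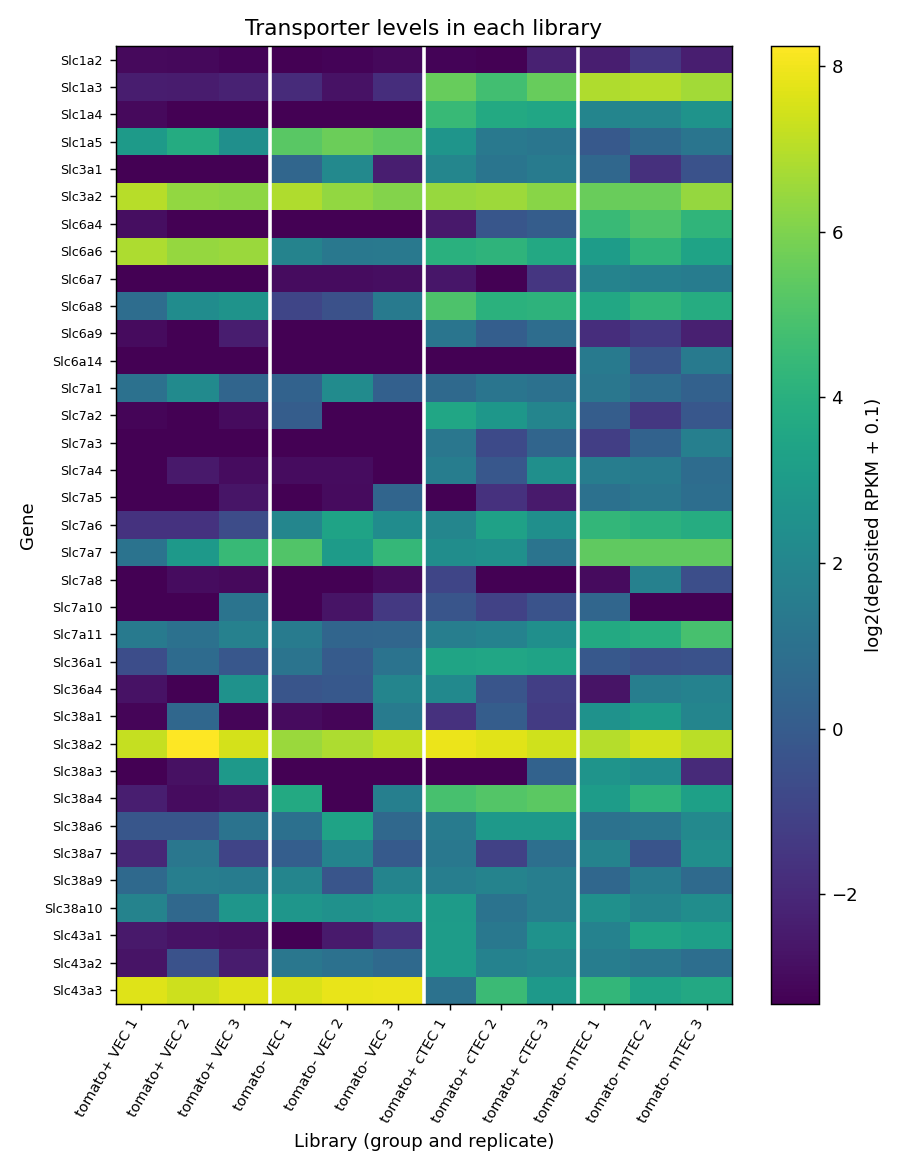
Level of each of the 35 tested transporters (rows) in each of the 12 libraries (columns, grouped by white lines), as log2(deposited RPKM + 0.1), with yellow for high and dark blue for low. Slc38a2 and Slc3a2 are high in every column, Slc43a3 in the 6 endothelial columns, Slc6a6 in the 3 tomato+ VEC columns and Slc1a3 in the 6 epithelial columns.

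Every one of the 59 genes had at least 1 count, but 24 were too low for the filter of the test. None of these 24 had more than 210 counts over the 12 libraries, and 6 of them had 10 or fewer. In 18 of the 24, more than 50% of the counts came from a single library, against 2 of the 35 that were tested. Their highest group was mTEC for 15, tomato+ VEC for 5, cTEC for 3 and tomato- VEC for 1. The highest total, 210 counts, was that of Slc6a12, a carrier of betaine and GABA, at 6.94, 16 and 0 CPM in the 3 mTEC libraries and at 0 in the other 9. Slc6a19, the neutral amino acid carrier of gut and kidney epithelium, stood at 3.09, 17.2 and 0 CPM in mTEC and at most 0.106 elsewhere. Slc7a13, a kidney light chain, was at 10.8 CPM in mTEC replicate 1 and at 0 in the other mTEC libraries. Slc1a1, a glutamate carrier of neurons and kidney, had 76 of its 82 counts in tomato+ VEC replicate 2. Slc7a15, a transporter-like gene of the light-chain group, was found in all 3 mTEC libraries at 3.09, 2.91 and 0.962 CPM and in none of the other 9. Others among the 24 were Slc1a6, Slc1a7, Slc6a2, Slc6a3, Slc6a5, Slc6a11, Slc6a13, Slc6a15, Slc6a17, Slc6a18, Slc7a9, Slc7a12, Slc7a14, Slc36a2, Slc36a3, Slc38a5, Slc38a8 and Slc38a11, whose highest value was 10.0 CPM for Slc6a18 in mTEC replicate 2.

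Endothelium and epithelium differed in many transporters. Of the 35 tested, 2 were higher and 16 lower in VEC than in TEC, and 17 did not pass. Among the 17 was Slc6a14, which had counts in mTEC only and could not be called here. Slc43a3 and Slc1a5 were the endothelial pair, and the genes higher in epithelium included the glutamate transporter Slc1a3, the serine exchanger Slc1a4, the serotonin transporter Slc6a4 and the creatine transporter Slc6a8. Over all 14792 genes tested, 14.4% were called higher and 21.8% lower in VEC, by edgeR's quasi-likelihood test at a Benjamini-Hochberg adjusted p under 0.05. The median log2 difference was -2.08 over the 35 transporters and -0.18 over all tested genes, and -2.08 also with low-count transporters at their bounds. A transporter that passed the filter only through its high group had to differ, so these counts describe the tested genes and lend no support to a statement about the family. All 6 VEC libraries lay above all 6 TEC libraries for Slc1a5 and Slc43a3, and below all of them for Slc1a3, Slc1a4, Slc6a4, Slc6a8, Slc7a3, Slc7a4 and Slc43a1. How many of all tested genes separated in this way was not taken, so this list describes single genes and not the family. Because these are bulk libraries, fewer cells of a type and less RNA per cell cannot be told apart in this or any later comparison.

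**Figure D2:**
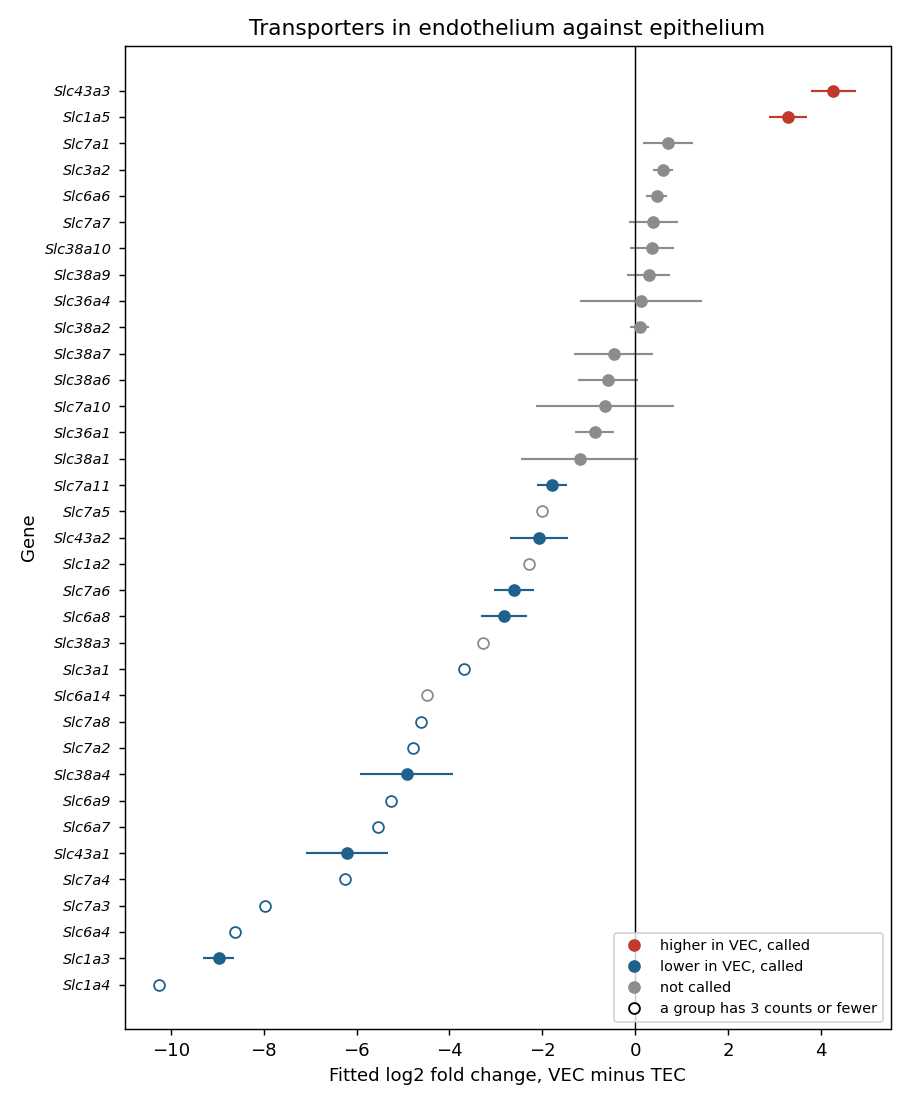
Fitted log2 difference between endothelium and epithelium (x axis, VEC minus TEC) for the 35 tested transporters (y axis). Bars are 1 standard error (SE), derived from the F statistic of the test. Red and blue points are the 2 higher and 16 lower calls, grey points did not pass, and open circles are genes with 3 counts or fewer in a group, whose fitted value depends on the prior count and has no bar.

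Among the family 1 transporters, Slc1a3 clears extracellular glutamate and aspartate and is best known from astrocytes. It stood at 0.416, 0.392 and 0.536 CPM in tomato+ VEC, at 0.779, 0.212 and 0.784 in tomato- VEC, at 179, 101 and 181 in cTEC and at 463, 508 and 391 in mTEC. It was near 0 in every endothelial library and abundant in every epithelial one. The log2 difference VEC minus TEC was -8.97 (SE 0.34, edgeR adjusted p = 7.33e-09), and only 9 of the 14792 genes had a smaller p. Sums of 6 glial and neuronal markers were 9.3 to 51.8 CPM in mTEC and 3.46 to 14.8 CPM in cTEC, and their part in the Slc1a3 level was not tested. Slc1a4, an exchanger of serine, alanine and cysteine, had 1 count in all VEC libraries together. In TEC it had 2337, at 78.6, 45.2 and 40.9 CPM in cTEC and 13.5, 14.8 and 22.4 in mTEC. The ratio was 1970-fold with a 95% counting interval of 352 to 77700 (edgeR adjusted p = 6.84e-06). Its close relative Slc1a5 went the other way, at 24.0, 41.6 and 16.1 CPM in the tomato+ VEC libraries, 119, 146 and 115 in tomato- VEC, 15.8, 6.17 and 5.63 in cTEC and 2.12, 3.95 and 5.69 in mTEC. All endothelial values exceeded all epithelial ones, although the lowest tomato+ VEC library was close to the highest cTEC library. The log2 difference VEC minus TEC was 3.28 (SE 0.41, edgeR adjusted p = 6.67e-05). The brain glutamate carrier Slc1a2 stayed at or below 2.91 CPM in every library and was not called.

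In family 6, 4 of the 6 tested transporters were lower in VEC. Slc6a4, which takes serotonin back into neurons and platelets, had 1 count in VEC and 2018 in TEC, a ratio of 1700 with a 95% counting interval of 304 to 67100 (edgeR adjusted p = 9.94e-05). Nearly all of it came from mTEC, at 59.1, 85.9 and 49.5 CPM, against 0.183, 1.86 and 2.42 in cTEC. Slc6a8, which imports creatine, stood at 7.28, 21.2 and 26.2 CPM in the tomato+ VEC libraries, 1.89, 2.66 and 10.2 in tomato- VEC, 114, 59.3 and 64.4 in cTEC and 45.0, 73.9 and 54.0 in mTEC. It was present in every library and on average lowest in tomato- VEC, and it was lower in VEC by log2 -2.83 (SE 0.49, edgeR adjusted p = 0.00077). Slc6a7, the brain proline transporter, was at 10.9, 10.0 and 8.74 CPM in mTEC and below 1 CPM in all 9 other libraries. Its 319 counts in TEC against 3 in VEC gave a ratio of 89.4 (95% counting interval 30.3 to 436, edgeR adjusted p = 0.00345). Slc6a9, a glycine transporter, was at 6.33, 2.94 and 4.93 CPM in cTEC, 0.579, 0.930 and 0.321 in mTEC and at most 0.321 in VEC (edgeR adjusted p = 0.00317). Slc6a14, a broad carrier of neutral and cationic amino acids, had 212 counts in mTEC and 0 in each other group. With cTEC and both VEC groups at 0, the lineage test could not call it, so the missing call shows no likeness.

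The cationic amino acid transporters of family 7 carry arginine, lysine and ornithine. The widely expressed Slc7a1 was found in all 12 libraries at 7.54 to 36.4 CPM and was not called (log2 VEC minus TEC 0.71, SE 0.54, edgeR adjusted p = 0.35). The inducible Slc7a2 stood at 78.7, 47.4 and 26.1 CPM in cTEC, 7.04, 1.98 and 5.77 in mTEC and 8.02, 0 and 0 in tomato- VEC, where all 72 counts came from replicate 1. Tomato+ VEC had 3 counts. The cTEC level was 446-fold above tomato+ VEC (95% counting interval 152 to 2170), and the lineage call had an edgeR adjusted p of 0.0107. Slc7a3, otherwise a brain gene, had 0 counts in VEC and 213 in TEC, at least 59.7-fold lower in VEC against a floor of 3 counts (edgeR adjusted p = 0.00189). Slc7a4, whose transport function is not settled, had 5 counts in VEC and stood at 2.25 to 15.7 CPM in cTEC and 4.97 to 8.68 in mTEC (edgeR adjusted p = 0.000457). These intervals and floors cover counting error only.

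The heavy chain Slc3a2 was abundant in all groups, and 3 light chains differed between the lineages. Slc3a2 stood at 398, 259 and 241 CPM in the tomato+ VEC libraries, 354, 246 and 194 in tomato- VEC, 221, 237 and 191 in cTEC and 127, 134 and 225 in mTEC. The tomato+ VEC libraries lay above all cTEC and all mTEC libraries, the other pairs of groups overlapped, and no comparison passed (log2 VEC minus TEC 0.59, SE 0.22, edgeR adjusted p = 0.0512). By contrast, the summed level of its light chains Slc7a5, Slc7a6, Slc7a7, Slc7a8, Slc7a10 and Slc7a11 was 14.2 ± 12.3 RPKM in tomato+ VEC, 29.9 ± 10.8 in tomato- VEC, 15.3 ± 3.51 in cTEC and 83.2 ± 4.98 in mTEC (SD, n = 3). The summed light chains were above the Slc3a2 level of 60.6 RPKM only in mTEC. The large neutral amino acid carrier Slc7a5 was low throughout, at 6.27, 7.91 and 5.77 CPM in mTEC, 4.59 in tomato- VEC replicate 3 and below 1 CPM in the other 8 libraries. It was called in no comparison (edgeR adjusted p = 0.273 for VEC against TEC). Of the light chains, Slc7a6, Slc7a8 and Slc7a11 were lower in VEC. Slc7a6, which exchanges arginine for glutamine, was lower by log2 -2.62 (SE 0.43, edgeR adjusted p = 0.000548), with the tomato+ VEC libraries lowest. Slc7a11, which imports cystine in exchange for glutamate and feeds glutathione synthesis, was lower by log2 -1.80 (SE 0.33, edgeR adjusted p = 0.00105). Slc7a8, a carrier of neutral amino acids, rested on 156 counts in TEC, most of them in mTEC replicate 2 at 12.8 CPM. Its adjusted p of 0.0388 by edgeR was lost without any library except cTEC replicates 2 and 3 and mTEC replicate 1, and ranged from 0.0354 to 0.964 when 1 library was left out. Slc7a10 and Slc7a7 were not called between the lineages. The second heavy chain, Slc3a1, which pairs with Slc7a9 in kidney, was at 0 in tomato+ VEC, 3.34, 10.3 and 0.224 CPM in tomato- VEC, 7.98, 4.51 and 5.71 in cTEC and 2.89, 0.465 and 1.44 in mTEC. It was lower in VEC (edgeR adjusted p = 0.0241), a call lost without tomato- VEC replicate 1, cTEC replicate 1 or mTEC replicate 1, at up to 0.055. It was also lost on log2(RPKM + 1), at an adjusted p of 0.104 by limma.

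Some transporter genes carry a response element for ATF4, the transcription factor that cells use when amino acids are scarce, and its core can be written TGATGNAA. Promoter windows of 300 bases, from 250 before to 50 after the start, came from RefSeq on GRCm38.p6, and 41 of the 59 transporters matched an entry. The core was searched on both strands, where a match on 1 strand may overlap another. It was found in 3.97% of all 32851 windows and in 4 of the 62 windows of the transporters, which belong to Slc1a4, Slc7a7 and Slc7a11. The 250 bases before the start are shown for both light chains among them, since both were higher in mTEC than in cTEC, with the core in capitals. The Slc7a11 stretch is chr3:50443614-50443863 and the Slc7a7 stretch is chr14:54417703-54417952, both on the minus strand and written 5′ to 3′.
Slc7a11: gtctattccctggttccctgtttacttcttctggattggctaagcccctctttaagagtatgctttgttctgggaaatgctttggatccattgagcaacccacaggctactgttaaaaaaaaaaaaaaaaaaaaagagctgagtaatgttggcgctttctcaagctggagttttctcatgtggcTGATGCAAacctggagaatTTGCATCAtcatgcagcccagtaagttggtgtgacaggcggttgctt
Slc7a7: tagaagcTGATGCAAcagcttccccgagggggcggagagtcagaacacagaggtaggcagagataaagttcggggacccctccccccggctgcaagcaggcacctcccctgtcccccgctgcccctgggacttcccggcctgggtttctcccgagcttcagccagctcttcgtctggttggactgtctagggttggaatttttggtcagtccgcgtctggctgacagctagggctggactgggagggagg
The Slc7a11 stretch holds the core on each strand, beginning 66 and 47 bases before the start, and the Slc7a7 stretch holds it once, 243 bases before. Slc7a7 has another RefSeq start upstream, whose 250 bases are chr14:54417945-54418194. There the core begins 141 bases before that start and again 1 base before it, the latter being the match already shown. A match describes the letters and says nothing of binding in these cells.

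Of the proton-coupled family 36, neither Slc36a1 nor Slc36a4 was called between the lineages, and Slc36a4 stayed at or below 12.5 CPM. In the sodium-coupled family 38, 1 of 8 tested members was. Slc38a4 stood at 0.416, 0.131 and 0.214 CPM in the tomato+ VEC libraries, 55.1, 0 and 12.2 in tomato- VEC, 102, 124 and 145 in cTEC and 30.2, 70.7 and 35.1 in mTEC. It was lower in VEC by log2 -4.92 (SE 1.00, edgeR adjusted p = 0.00223), with wide scatter in tomato- VEC, and by -5.82 without tomato- VEC replicate 1. Slc38a2, the most abundant member, varied only between 458 and 1550 CPM over the 12 libraries (log2 VEC minus TEC 0.09, SE 0.20, edgeR adjusted p = 0.774). The lysosomal arginine sensor Slc38a9 was at 6.91 to 36.5 CPM and was not called. Slc38a1, Slc38a3, Slc38a6, Slc38a7 and Slc38a10 were not called either, in this or any other comparison.

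The 3 members of family 43 split. Slc43a3 stood at 592, 478 and 582 CPM in the tomato+ VEC libraries, with 549, 649.9 and 643 in tomato- VEC, against 4.49, 55.7 and 18.3 in cTEC and 48.6, 26.3 and 30.8 in mTEC. Its log2 difference VEC minus TEC was 4.26 (SE 0.48, edgeR adjusted p = 2.92e-05). The highest cTEC value was that of replicate 2, the library with 461 CPM of endothelial markers, and without it the log2 difference was 4.88. The large neutral amino acid carriers Slc43a1 and Slc43a2 went the other way. Slc43a1 was at most 0.560 CPM in VEC and 5.49 to 26.4 CPM in TEC (log2 -6.20, SE 0.89, edgeR adjusted p = 0.00018). Slc43a2 stood at 0.416, 5.23 and 0.643 CPM in the tomato+ VEC libraries, 17.8, 14.3 and 10.5 in tomato- VEC, 53.5, 21.6 and 26.2 in cTEC and 19.4, 15.9 and 11.6 in mTEC. Its libraries overlapped between the lineages (log2 -2.08, SE 0.63, edgeR adjusted p = 0.0211). The call was lost without tomato- VEC replicate 3 or cTEC replicate 1, at up to 0.0669, and the log2 difference was -3.02 without tomato+ VEC replicate 2.

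Within endothelium, reporter-positive cells were marked by the taurine transporter. Slc6a6 was the single transporter called higher in tomato+ than in tomato- VEC, and the light chain Slc7a6 the single one called lower, of 35 tested. Over all genes 0.568% were called higher and 1.08% lower in tomato+ VEC. The median log2 difference was -0.11 over the 35 transporters and 0.00 over all genes. With low-count transporters at their bounds, and without the 7 at or under 3 counts in both groups, it was -0.52 over 28.

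Slc6a6 imports taurine, a sulfur-containing osmolyte and antioxidant, together with sodium and chloride. It stood at 792, 578 and 621 CPM in the tomato+ VEC libraries, 23.8, 15.4 and 15.2 in tomato- VEC, 88.7, 101 and 71.5 in cTEC and 47.9, 112 and 59.7 in mTEC. The tomato+ VEC libraries lay above all others and the tomato- VEC libraries below all others, while the epithelial groups overlapped. The log2 difference between tomato+ and tomato- VEC was 5.19 (SE 0.38, edgeR adjusted p = 8.58e-05), and 1 of the 14792 genes had a smaller p. Left-out libraries gave log2 differences of 5.09 to 5.45, all past the threshold. Between the lineages the opposite endothelial levels averaged to a log2 difference of 0.46 (SE 0.23, edgeR adjusted p = 0.143), and cTEC and mTEC differed by 0.25 (SE 0.32, edgeR adjusted p = 0.785). In RPKM, Slc6a6 gave 15.1% of the summed transporter level in tomato+ VEC. The RefSeq promoter table used here has no entry for Slc6a6.

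Slc7a6 stood at 0.935, 0.915 and 2.25 CPM in the tomato+ VEC libraries, with 15.9, 40.9 and 18.5 in tomato- VEC, 12.9, 33.0 and 18.2 in cTEC and 69.7, 63.2 and 50.9 in mTEC. Every tomato+ VEC library was below every other library. The log2 difference between tomato+ and tomato- VEC was -4.18 (SE 0.66, edgeR adjusted p = 0.00818), and -3.59 without tomato- VEC replicate 2. The call did not pass when only the 6 VEC libraries were fitted, at an adjusted p of 0.13 by edgeR.

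Other transporters separated the endothelial groups without passing the test. Slc1a5 had all 3 tomato+ VEC libraries, at 16.1 to 41.6 CPM, below the 115 to 146 CPM of tomato- VEC (log2 -2.22, SE 0.55, edgeR adjusted p = 0.0698). Slc38a2 stood at 777, 1550 and 915 CPM in the tomato+ VEC libraries, with 458, 565 and 713 in tomato- VEC, also without overlap (log2 0.90, SE 0.28, edgeR adjusted p = 0.138). Slc43a2 and Slc3a1 lay lower in every tomato+ VEC library, with adjusted p of 0.159 and 0.0621 by edgeR. For Slc3a1, pooled totals of 129 for tomato- VEC and 0 for tomato+ VEC gave a bound of at least 41.9-fold against a floor of 3. This bound covers counting error only and does not hold library by library. Of the 129, replicate 1 held 30, replicate 2 held 97 and replicate 3 held 2, which is under the floor. Slc38a4 had an adjusted p of 0.0642 by edgeR, with 1 tomato- VEC library at 0.

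**Figure D3:**
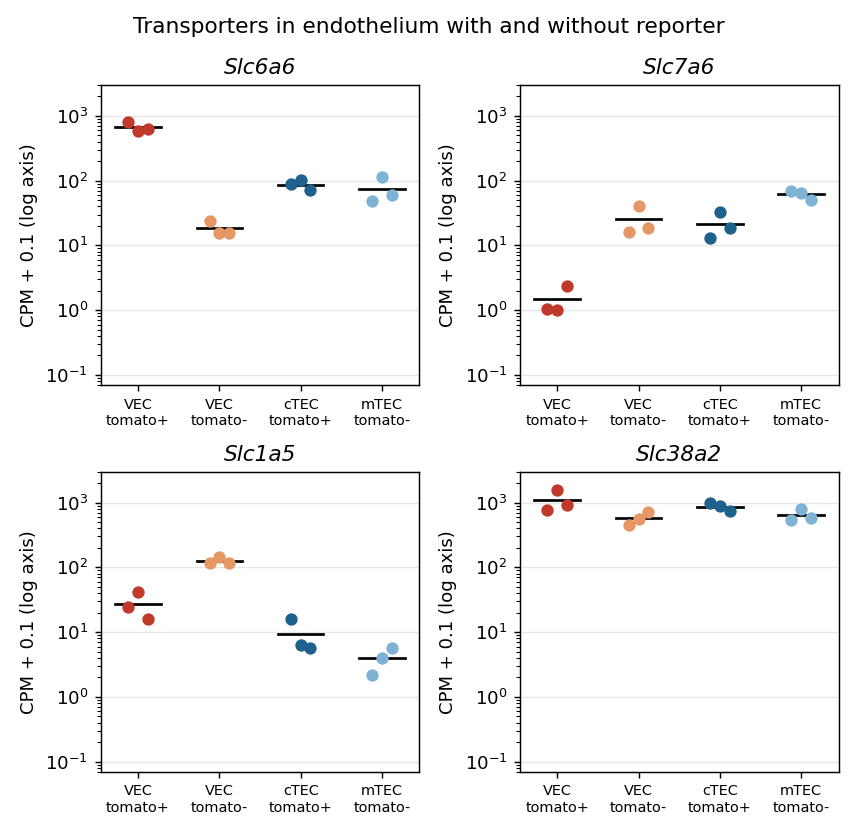
CPM + 0.1 on a log axis for Slc6a6, Slc7a6, Slc1a5 and Slc38a2 in the 4 groups, with a point per library and a line at each group mean. Slc6a6 lies at 578 to 792 CPM in the tomato+ VEC libraries, with 15.2 to 23.8 CPM in tomato- VEC, and Slc7a6 lies at 0.915 to 2.25 CPM in tomato+ VEC, below the other 3 groups.

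Genes of taurine and amino acid metabolism were counted in the same contrast. Over all tested genes 0.568% were called higher and 1.08% lower in tomato+ VEC. At such shares a list of this length would hold few calls in any case. No list was tested against these shares. Of 5 tested tonicity-response genes, which include Nfat5, the factor that drives osmolyte genes, none passed in either direction by edgeR, and 1 had an unadjusted p under 0.05. Nfat5 was at 98.7 to 264.9 CPM in the tomato+ VEC libraries, with 118.2 to 223.5 CPM in tomato- VEC. Of 10 tested genes of sulfur amino acids, taurine and glutathione, none passed by edgeR, and 1 had an unadjusted p under 0.05. Cdo1, the cysteine dioxygenase that starts taurine synthesis, had no count in any of the 6 VEC libraries. Of 13 genes of glutamine, glutamate and proline, only Glul passed, higher in tomato+ VEC. Glul, which makes glutamine from glutamate, stood at 238, 268 and 209 CPM in the tomato+ VEC libraries, with 83.4, 66.6 and 43.4 in tomato- VEC (log2 1.89, SE 0.26, edgeR adjusted p = 0.00407). Of 15 genes of arginine, nitric oxide, creatine and polyamines, only the polyamine enzyme Odc1 passed, at 29.9 to 38.3 CPM in the tomato+ VEC libraries, with 110.4 to 153 CPM in tomato- VEC (log2 -1.88, SE 0.30, edgeR adjusted p = 0.00818). Of 16 amino acid response genes 1 was lower, Vldlr. None of 6 branched-chain genes, 18 mTORC1 sensing genes or 18 other carriers passed by edgeR, where 1, 3 and 2 had an unadjusted p under 0.05. Of 5 tested lymphatic markers 3 were lower in tomato+ VEC, with sums of 6 markers at 49.8 to 62.7 against 262 to 378 CPM. The markers did not move as a set. Ccl21a stood at 77.3 to 276.7 CPM in tomato- VEC and at most 2.60 in tomato+ VEC, and Lyve1 at 36.4 to 78.2 and 0. Flt4 overlapped, at 17.7 to 72.7 CPM in tomato- VEC and 48.3 to 61.4 in tomato+ VEC, where it gave most of the sum. The part of lymphatic markers in the transporter differences was not tested.

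Cortical and medullary epithelium differed in 6 of the 35 tested transporters, 1 higher in cTEC and 5 higher in mTEC. The proton-coupled Slc36a1 was the cortical one. Slc1a3, Slc6a4, Slc6a14, Slc7a7 and Slc7a11 were medullary, and they carry glutamate, serotonin, neutral and cationic amino acids, and cystine. Over all genes 2.73% were called higher and 5.1% lower in cTEC. Here too, genes that passed the filter through mTEC had to differ, such as Slc6a14, with counts in mTEC only, and Slc6a4, at most 2.42 CPM elsewhere, so the count supports no statement about the family. The median log2 difference, cTEC minus mTEC, was -0.17 over the 35 transporters, with or without bounds, and 0.02 over all genes. Without overlap between the 3 libraries of each group, 7 tested transporters lay higher in cTEC and 9 higher in mTEC. The share of all tested genes without such overlap was not taken, so these counts too support no statement about the family.

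Slc36a1, which exports small amino acids from lysosomes with protons, stood at 49.9, 53.7 and 49.7 CPM in cTEC and 3.95, 3.14 and 3.21 in mTEC, with 3.33 to 12.1 CPM in VEC. Every cTEC library was above every other library, and the cTEC replicates were close together. The log2 difference cTEC minus mTEC was 3.89 (SE 0.66, edgeR adjusted p = 0.00495), and no left-out library ended the call. Slc1a4, Slc7a2, Slc38a4, Slc43a2, Slc6a9 and Slc3a1 also lay higher in all 3 cTEC libraries but did not pass, for example Slc1a4 with a log2 difference of 1.70 (SE 0.71, edgeR adjusted p = 0.207). Fibroblast and thymocyte marker sums were higher in every cTEC library than in every mTEC library, as given above, and their part in these levels was not tested.

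The 5 medullary calls each depended on single libraries. Slc7a11 stood at 24.9, 28.1 and 44.9 CPM in cTEC and 113, 136 and 258 in mTEC, with 12.3 to 33.2 CPM in VEC. Every mTEC library was above every other library, and the log2 difference cTEC minus mTEC was -2.37 (SE 0.47, edgeR adjusted p = 0.0117). It was lost without cTEC replicate 1 or mTEC replicate 3, at up to 0.0607. Slc1a3 was lower in cTEC by log2 -1.56 (SE 0.33, edgeR adjusted p = 0.0162), and Slc6a4 by -5.43 (SE 1.08, edgeR adjusted p = 0.0162). Both calls were lost without cTEC replicate 2, mTEC replicate 1 or mTEC replicate 2, at up to 0.0694. Slc1a3 was also lost on log2(RPKM + 0.1), at 0.0637 by limma. Pericyte and smooth muscle marker sums were higher in mTEC than in cTEC and fibroblast sums lower, as given above. Of the former, Rgs5 stood at 206.3 to 433.7 CPM in mTEC and 8.62 to 65.5 in cTEC. Acta2 overlapped, at 225.1 to 360.6 and 75.7 to 324 CPM, as did Cspg4. None of the 5 tested pericyte and smooth muscle markers passed between cTEC and mTEC by edgeR. The part of these markers in the Slc1a3 level was not tested. Platelets also carry Slc6a4. Platelet marker sums were 4.92, 73.0 and 19.6 CPM in mTEC, 1.38 to 1.73 CPM in cTEC and 3.32 to 184.5 CPM in VEC, and their part in the Slc6a4 level was not tested.

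Slc7a7, the arginine exporter of gut, kidney and macrophages, stood at 10.3, 11.2 and 4.33 CPM in cTEC and 91.7, 95.5 and 91.9 in mTEC. In VEC it scattered from 5.09 to 86.9 CPM. The log2 difference cTEC minus mTEC was -3.44 (SE 0.81, edgeR adjusted p = 0.0254). It was lost without any of the 6 TEC libraries, with adjusted p of 0.00832 to 0.0884 over all left-out libraries. Myeloid marker sums were 394 to 413 CPM in mTEC and 11.2 to 169 CPM in cTEC, and their part in the Slc7a7 level was not tested. Lyz2 alone gave 315 to 393 CPM of the mTEC sums, and the other markers went either way. Fcer1g was at 5.4 to 31.2 CPM in mTEC and 0 to 1.38 in cTEC. Cd68 was at 3.61 to 13.6 CPM in mTEC and 6.17 to 20.4 in cTEC. Slc6a14 had 0 counts in the 9 other libraries and stood at 8.10, 2.44 and 8.58 CPM in mTEC, at least 73.4-fold higher than in cTEC against a floor of 3 counts. Its adjusted p of 0.0416 by edgeR was lost without any library except the tomato+ VEC libraries and tomato- VEC replicate 1, and ranged from 0.0463 to 0.12 over left-out libraries. DESeq2 gave 0.0512 and edgeR without the low-count filter 0.056. The number of calls was 2 without cTEC replicate 2, mTEC replicate 1 or mTEC replicate 2, and 3 without cTEC replicate 1 or mTEC replicate 3.

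**Figure D4:**
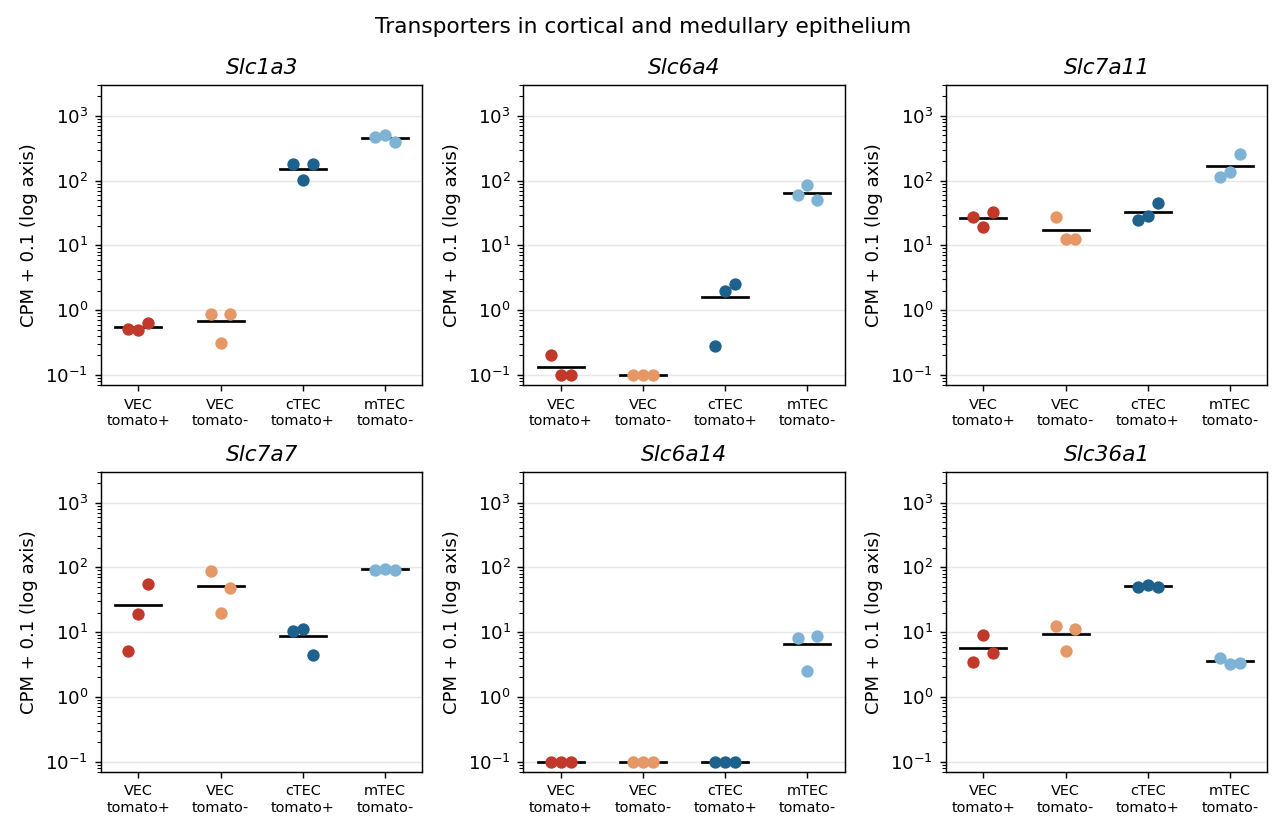
CPM + 0.1 on a log axis for the 6 transporters called between cTEC and mTEC, in the 4 groups, with a point per library and a line at each group mean. Slc36a1 lies at 49.7 to 53.7 CPM in cTEC, and Slc1a3, Slc6a4, Slc7a11, Slc7a7 and Slc6a14 are highest in mTEC. Slc6a14 has counts only there.

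The reporter contrast, tomato+ minus tomato-, was then compared between endothelium and epithelium, which tests whether the 2 contrasts differ. Of 35 transporters 5 passed, and of all genes 3.08%. The members were chosen with earlier results of these data known, so this count too supports no statement about the family. Slc6a6 differed most clearly, by log2 4.95 (SE 0.48, edgeR adjusted p = 0.000413), with a difference of 5.19 in VEC and 0.25 in TEC. Slc36a1 differed by log2 -4.63 (SE 0.87, edgeR adjusted p = 0.018), with -0.74 in VEC and 3.89 in TEC, and this was lost without cTEC replicate 1 or any mTEC library, at up to 0.0594. Slc7a11 differed by log2 2.99 (SE 0.65, edgeR adjusted p = 0.0302), with 0.61 in VEC and -2.37 in TEC. Slc1a5 differed by log2 -3.44 (SE 0.78, edgeR adjusted p = 0.0361), with -2.22 in VEC and 1.22 in TEC. Slc3a1, at 0 in tomato+ VEC, also passed (edgeR adjusted p = 0.0429). The Slc7a11 call was lost without any mTEC library, cTEC replicates 1 or 2 or tomato- VEC replicates 2 or 3, at up to 0.0961. The Slc1a5 call was lost without any library except tomato+ VEC replicate 2 and cTEC replicates 2 and 3, at up to 0.0991, and the Slc3a1 call without any except tomato- VEC replicate 3, at up to 0.106. The count of 5 fell to 1 without cTEC replicate 1 or any mTEC library, and to 3 without cTEC replicate 2, tomato+ VEC replicate 1, tomato+ VEC replicate 3 or any of the tomato- VEC libraries.

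Genes of amino acid metabolism were counted between the lineages in the same way. The counts stand beside the 14.4% of all tested genes called higher and the 21.8% called lower in VEC. No list was tested against these shares. As with the transporters, a gene that passed the filter only through its high group had to differ. Of 16 amino acid response genes 1 was higher and 7 lower in VEC. The higher one was Atf4 itself, with a log2 difference of 1.14 (SE 0.26, edgeR adjusted p = 0.00513). The lower ones included the serine synthesis enzymes Phgdh, at most 0.214 CPM in VEC and 59.97 to 150.3 CPM in TEC (edgeR adjusted p = 1.4e-07), and Psat1, at most 13.1 CPM in VEC and 78.6 to 547 CPM in TEC (edgeR adjusted p = 0.000651). Cth, which makes cysteine from cystathionine, had 2 counts in VEC and stood at 113 to 143 CPM in cTEC and 7.81 to 25.8 CPM in mTEC (edgeR adjusted p = 6.17e-06). Of 10 genes of sulfur amino acids, taurine and glutathione 4 were lower in VEC, among them Ggt5 and Cdo1. Of 5 tonicity genes 1 was higher in VEC, the kinase Sgk1 (log2 3.34, SE 0.21, edgeR adjusted p = 2.31e-07). Of 13 genes of glutamine, glutamate and proline 2 were higher and 4 lower. Of 15 arginine, nitric oxide, creatine and polyamine genes 2 were higher, Ddah1 and the endothelial nitric oxide synthase Nos3 (log2 5.88, SE 1.08, edgeR adjusted p = 0.00114), and 1 lower, Arg2. Of 6 branched-chain genes 3 were lower and none higher, and of 18 mTORC1 sensing genes 1 was higher and 3 lower. Of 9 transmitter genes 1 was higher, Maoa, and 4 lower, among them Ache, and of 18 other carriers 1 was higher and 5 lower.

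Between cTEC and mTEC the transmitter genes included 3 lower in cTEC of 9 tested and none higher. Over all tested genes 5.1% were lower and 2.73% higher. Genes that passed the filter only through mTEC, such as Gad1, Chat and Slc17a8, had to differ. The counts therefore support no statement about the lists. Hdc, which makes histamine, stood at 2.75, 0.686 and 6.58 CPM in cTEC and 798, 638 and 384 in mTEC (log2 -7.49, SE 0.85, edgeR adjusted p = 0.000485). Gad1, which makes GABA, had 1 count in cTEC and stood at 28 to 31.3 CPM in mTEC (edgeR adjusted p = 0.0126), and Chat, which makes acetylcholine, had 0 counts in cTEC and 74 in mTEC (edgeR adjusted p = 0.0415). Tph1, the first enzyme of serotonin synthesis outside the brain, was at 0.868, 104 and 5.85 CPM in mTEC, a difference without a call (edgeR adjusted p = 0.104). Of 18 other carriers 2 were lower in cTEC, Slc17a8 and the vesicular amine transporter Slc18a1, which stood at 2.48, 2.74 and 0.346 CPM in cTEC and 83.3, 18.5 and 40.6 in mTEC (edgeR adjusted p = 0.0317). Of 16 amino acid response genes 2 were higher in cTEC, Cth and Vldlr, and none lower. Of the sulfur list Mat2a was higher and Ggt5 lower, of the glutamine list Oat was higher, of the arginine list Arg2 was lower, of the branched-chain list Bcat1 was lower and of the mTORC1 list Sesn1 was higher in cTEC. No tonicity gene passed by edgeR, and 1 of 5 had an unadjusted p under 0.05.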

How the data were processed

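Polyadenylated RNA of sorted thymic stromal cells was amplified with a low-input kit and sequenced, per the labels' protocols. Per the submitters' processing notes, TopHat2 2.0.10 was used, with mm9 as the build. What counted the reads, the annotation and any filters were not given in the sources used here, so counts shared between related genes cannot be judged. Per the file headers, the deposited table holds raw read counts and, made by the authors, RPKM for each symbol. The coordinates given are those of the RefSeq promoter table on GRCm38.p6, and none on the build of the files is given.

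The test was edgeR 4.0.16 (R 4.3.3): filterByExpr with a minimum count of 10 (14792 genes), TMM scaling, a quasi-likelihood model of the 4 groups over all 12 libraries (8 residual degrees of freedom), and Benjamini-Hochberg adjustment over all genes tested. Genes with an adjusted p under 0.05 were called. The SE given with edgeR log2 differences is the absolute log2 difference divided by the square root of the test's F statistic. CPM are TMM-normalised. VEC against TEC compares the means of the 2 groups of each lineage. The labels name no sequencing batch. Every member was accounted for, except that some genes are not reported here. Values were given for members called in any comparison, the most abundant of each role, and Slc6a6, Slc3a2 and Slc7a5, and up to 3 called genes per pathway list were named. Other genes named, such as Atf4, Psat1 and Maoa, were chosen after their values were seen. A group with 0 counts was set to a floor of 3, and 1 to 3 counts gave a ratio with a 95% counting interval. Alternatives were DESeq2 1.42.0, limma 3.58.1 (voom, and trend on log2(RPKM + 1) and log2(RPKM + 0.1)), relative log expression scaling, no filter, at least 5 CPM in 3 libraries, robust dispersions, the 6 libraries compared, a replicate block and each library left out. Scripts were tested on simulated counts. The members, lists and tests were chosen with earlier results of these data known.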

Additional observations from a re-analysis of the deposited data

Results flagged for a closer look

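For 5 transporters the reporter contrast differed between endothelium and epithelium by a test of the difference itself (edgeR, log2, VEC minus TEC). The fitted differences were 4.95 for Slc6a6 and 2.99 for Slc7a11. They were -3.44 for Slc1a5, -4.63 for Slc36a1 and -10.42 for Slc3a1. The Slc3a1 value rests on a group with 0 counts, depends on the prior count and is no measure of size. Only the Slc6a6 difference passed without each of the 12 libraries in turn. In epithelium the contrast also changes the cortical or medullary gate. Groups of 3 libraries were not examined for outlying samples.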

How the results depend on the processing

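The counts of called transporters were 18 for VEC against TEC, 2 for tomato+ against tomato- VEC, 6 for cTEC against mTEC and 5 for the difference of contrasts. The first stayed within 1.5 times under every alternative, with 15 to 20 when a library was left out. The second became 7 with DESeq2, 4 with voom and 1 with only the 6 VEC libraries. The third became 11 with voom, 12 on log2(RPKM + 1), 13 with only the 6 TEC libraries and 2 to 7 with a library left out. The last became 11 with DESeq2, 11 on log2(RPKM + 1), 9 on log2(RPKM + 0.1) and 1 to 5 with a library left out. The cause was not tested. The labels do not say whether replicate numbers pair the libraries. Deviations of same-numbered libraries correlated at -0.014 to 0.077, which gave no sign of pairing but does not settle it. The replicate block gave 16, 2, 4 and 3 calls, and the calls between cTEC and mTEC that it ended were Slc6a14 (edgeR adjusted p = 0.136) and Slc7a7 (0.0527). The log2 difference between tomato+ and tomato- VEC of Slc3a2 (0.18) ranged from -0.041 to 0.46, negative without tomato+ VEC replicate 1, and that of Slc7a5 (-4.20) from -6.99 to 0.397, positive without tomato- VEC replicate 3. The median log2 difference of all genes, VEC minus TEC, was -0.18 with TMM and -0.31 with relative log expression scaling. Among transporters at a few CPM, the lineage call of Slc7a8 was lost without 9 of the 12 libraries and the cTEC against mTEC call of Slc6a14 without 8, while the lineage calls of Slc6a7, Slc6a9, Slc7a3 and Slc7a4 passed without each library in turn.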
